A study of Mus musculus with 86 samples.

Results

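Of the 20175 probes counted in UVB-exposed mouse back skin, 105 were common in the CD45-stained areas of the deep dermis and scarce in those of the adipose layer. They were chosen by their measured levels at 0 h: a mean of 100 CPM (a count scaled to a library of 1000000) or more in CD45 deep dermis, at least 4 times the mean of CD45 adipose, and a ratio above 1.5 in each of 3 mice. The 0 h levels of these 2 compartments are therefore a description, with no test. Away from the contrast that chose them, the 105 probes did not behave as 1 group. At 0 h, 48 had their highest mean level in CD45 deep dermis, 46 in a PanCK-stained epithelial area and 11 in CD45 epidermis, so "dermal CD45 probes" describes how they were found and not where most of them were highest. The PanCK maximum lay in the deep dermis for 22 probes and in the epidermis for 24.

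Skin is layered. The epidermis is a sheet of keratinocytes that extends into the dermis as hair follicles and sebaceous glands, the dermis holds fibroblasts, vessels and resident immune cells, and fat cells fill the layer beneath. CD45 is the common surface protein of leukocytes, and pan-cytokeratin (PanCK) staining marks epithelial cells. GeoMx digital spatial profiling releases and counts probe barcodes from such stained areas of a section, so every value is a sum over many cells. Fewer cells of a type and less RNA per cell cannot be told apart in it. UVB injures keratinocytes and is known to bring leukocytes into the skin over the following hours and days.

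The mice were wild-type C57BL/6 females of 12 to 16 weeks. Biopsies at 0, 6 and 24 h followed 1 exposure of the shaved back to 500 mJ/cm2 of UVB (290 to 320 nm), the labels do not say on which side of the exposure 0 h lies, and skin not exposed to UVB is not among the labelled groups, so UVB and other effects of time or handling cannot be told apart. The labels name mice 208, 210 and 219 at every time, all under 1 scan number. The 85 segments came from PanCK and CD45 areas of the epidermis and of the deep dermis and from CD45 areas of the adipose layer, and were summed per mouse, compartment and time into 44 sums, with 3 mice a group except CD45 adipose at 6 h (2 mice, 210 and 219). Each region was split by staining, so a PanCK and a CD45 area can lie in the same region and are not separate pieces of tissue.

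CD45 deep dermis had 17076 to 137782 counts per sum, against 28335 to 143225 in CD45 adipose and 44694 to 433425 in the other compartments. Behind the 0 h level of a member in CD45 deep dermis stood a median of 31 counts over the 3 mice (13 to 328), and in CD45 adipose a median of 3 counts (0 to 11). Neither the count files nor the reference tables used here give the gene behind an identifier. Hence no gene is named, no member's function is given, and the stained areas could not be checked against marker genes. Sequences are not printed for the same reason.

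The conditions narrowed the list in steps. At 0 h, 1415 probes reached 100 CPM in CD45 deep dermis, 342 of them also stood at 4 times the adipose level, and 237 of those were dropped by the condition on each mouse. At the abundance limit, RTS0064510 (100.1 CPM) was just inside and RTS0070653 (99.4 CPM) just outside. At the ratio limit, RTS0062103 had 4.02 times the adipose level and RTS0070364 had 3.9998 times. On the per-mouse condition, the lowest ratio of RTS0064947 was 1.502 and that of RTS0078867 was 1.490. With a limit of 3 times the list held 119 probes, and with 6 times it held 74.

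The ratio of PanCK deep dermis to CD45 deep dermis at 0 h split the 105 probes into 3 patterns, named here after that ratio. The 50 probes low in PanCK dermis (ratio of 0.5 or less) had a median level of 169 CPM in CD45 deep dermis at 0 h, against 35.4 in PanCK deep dermis, 37.4 in CD45 epidermis, 22.6 in PanCK epidermis and 18.6 in CD45 adipose. For comparison, the median of all listed probes was 25.2 to 34.6 CPM in the 5 compartments at 0 h. At the median, this pattern therefore lay near or below the level of an ordinary probe outside CD45 deep dermis. For CD45 adipose and PanCK deep dermis that is in part fixed by the selection and the ratio limit. In CD45 epidermis its probes ran up to 1053 CPM, with an upper quartile of 87.1 CPM against 47.9 CPM over all listed probes. The 36 probes in between had medians of 138 CPM in CD45 deep dermis, 154 in PanCK deep dermis, 113 in CD45 epidermis and 121 in PanCK epidermis. The 19 probes high in PanCK dermis (ratio of 2 or more) had medians of 272 CPM in CD45 deep dermis, 919 in PanCK deep dermis, 252 in CD45 epidermis and 499 in PanCK epidermis, and 21.9 in CD45 adipose. In this last pattern every probe had its highest 0 h mean outside CD45 deep dermis, 10 in PanCK deep dermis, 8 in PanCK epidermis and 1 in CD45 epidermis. Of the 50 low in PanCK dermis, 42 were highest in CD45 deep dermis and 8 in CD45 epidermis.

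**Figure D1:**
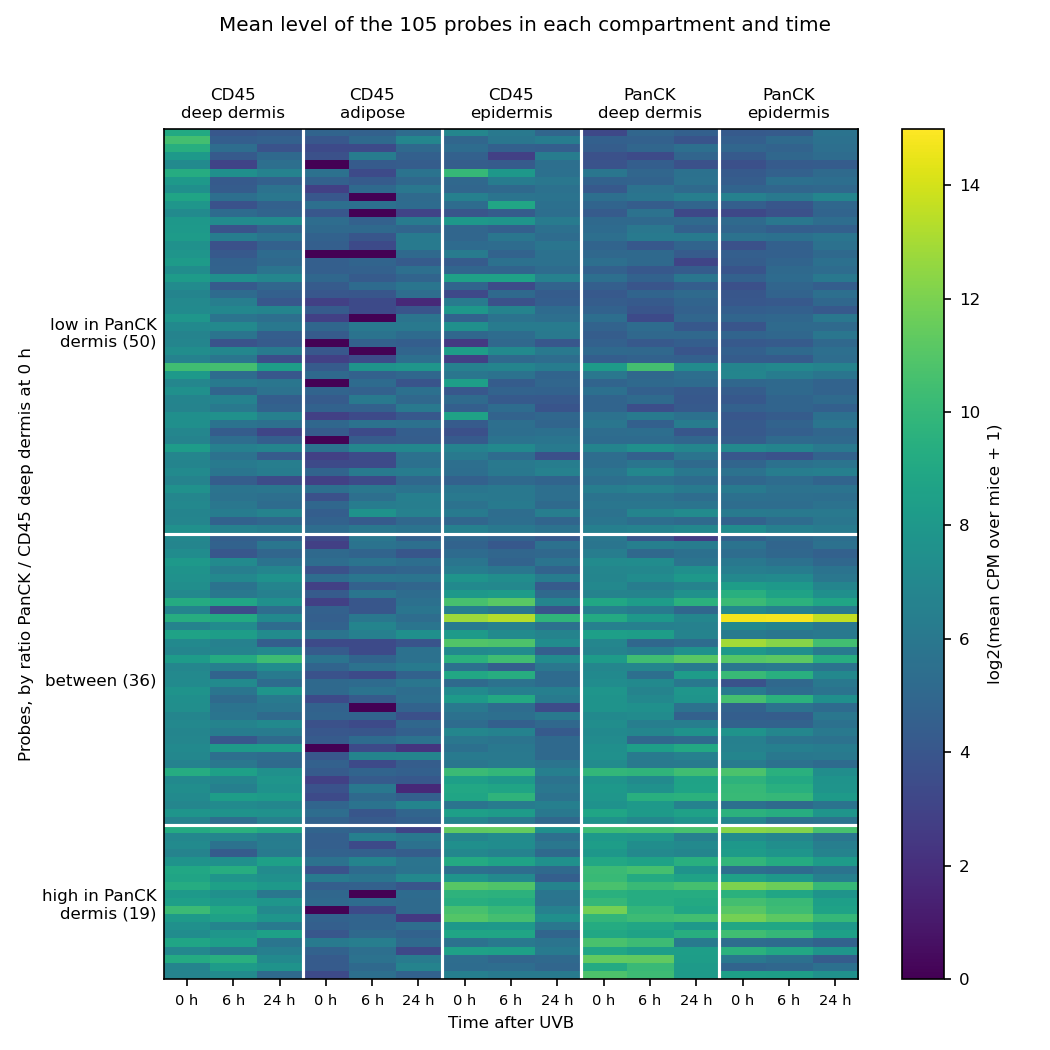
Rows are the 105 probes, ordered within 3 patterns by the ratio of PanCK to CD45 deep dermis at 0 h, columns are 5 compartments at 0, 6 and 24 h, and colour is log2(mean CPM over mice + 1). The 50 probes of the upper block are bright mainly in CD45 deep dermis at 0 h, while the 19 of the lower block are brighter in PanCK deep dermis, at a median of 919 CPM at 0 h.

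Many members of the first pattern owed their 0 h level to a single segment. Each 0 h level in CD45 deep dermis came from 6 segments, 2 per mouse. In 48 of the 105 probes, 1 segment held over 50% of the CPM added over the 6 segments. The same was true of 28.8% of the 1415 probes at 100 CPM or more, against 45.7% of the 105. In 34 of the 48, the segment was the deeper one of mouse 208 (47563 counts), where these 34 probes had a median of 589 CPM. The other segment of that mouse gave them a median of 30.1 CPM, and the 4 segments of the other mice a median of 56.2. Of the 48 probes, 38 were low in PanCK dermis, 9 were in between and 1 was high in PanCK dermis. Left without that segment, 64 of the 105 still met the conditions, 41 did not, and 27 other probes did.

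**Figure D2:**
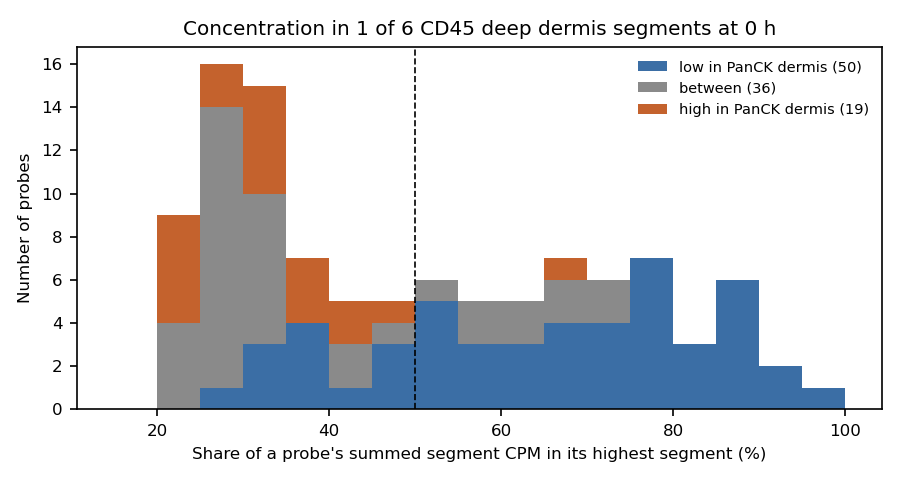
Histogram of the share of each probe's CPM, added over the 6 CD45 deep dermis segments at 0 h, that lies in its highest segment, in steps of 5%. Bars are stacked by pattern, the dashed line marks 50%, and 38 of the 48 probes to its right are low in PanCK dermis.

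The 2 members with the highest 0 h mean in CD45 deep dermis both stood on such segments. RTS0069651 had 24.8, 41.8 and 4318 CPM at 0 h in mice 208, 210 and 219, the order of all values by mouse below (152 counts in mouse 219, all in 1 of its segments). Later it had 56.3, 7.26 and 0 CPM there (6 h) and 34.3, 38.7 and 0 CPM (24 h). Its group means in the other compartments ran from 13.7 to 119 CPM at any time. The high value was thus that of 1 segment at 1 time. RTS0068460 had 3850, 209 and 56.8 CPM in CD45 deep dermis at 0 h, then 1783, 1546 and 1054 CPM at 6 h, and 240, 581 and 171 CPM at 24 h. Its 2 segments of mouse 208 at 0 h had 1493 and 7225 CPM. In PanCK deep dermis it had 491, 312 and 100.1 CPM at 0 h and 3941, 273 and 116 CPM at 6 h, again with mouse 208 far above the others. In CD45 adipose the values were 18.5, 37.4 and 0 CPM at 0 h, 389 and 29.8 CPM at 6 h, and 45.1, 419 and 247 CPM at 24 h. This probe was high in all 3 mice of CD45 deep dermis at 6 h, and not only where it had been selected.

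By Pearson's r of log2(CPM + 1) over the 44 sums, the probes outside the list most like RTS0069651 were RTS0071408 (r = 0.75) and RTS0064565 (r = 0.68). The nearest to RTS0068460 were RTS0067129 (r = 0.63) and RTS0068213 (r = 0.62). These are descriptions over sums that share mice and compartments, and all 4 of these probes had under 100 CPM in CD45 deep dermis at 0 h, the highest being RTS0067129 at 89.6 CPM.

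Taken as a sum, the 105 probes held 2.63% ± 0.86 (SD, n = 3) of all counts in CD45 deep dermis at 0 h and 0.231% ± 0.026 (n = 3) in CD45 adipose, as the selection requires. Their largest share was elsewhere, in PanCK epidermis, with 8.18, 7.36 and 6.65% in mice 208, 210 and 219 at 0 h. In that compartment it was 5.85, 6.36 and 6.53% at 6 h and 2.73, 2.16 and 3.1% at 24 h, so the 24 h values lay below all earlier ones. A single probe, RTS0069791, carried much of it, and without it the means were 4.65, 3.43 and 1.42% at 0, 6 and 24 h. CD45 epidermis had 3.48% ± 0.69 at 0 h, 3.59% ± 0.26 at 6 h and 0.653% ± 0.080 at 24 h (n = 3 each), again with no overlap between 24 h and the earlier times. PanCK deep dermis moved less, from 3.1% ± 0.60 at 0 h to 2.75% ± 0.39 at 6 h and 2.23% ± 0.36 at 24 h, and its groups overlapped. In CD45 adipose the share was 0.386% at 6 h (0.298 and 0.474%) and 0.476% ± 0.175 at 24 h. CD45 deep dermis held 1.51% ± 0.43 at 6 h and 1.12% ± 0.33 at 24 h. No test was made on these shares, and those of CD45 deep dermis and CD45 adipose at 0 h come from the sums that selected the members.

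**Figure D3:**
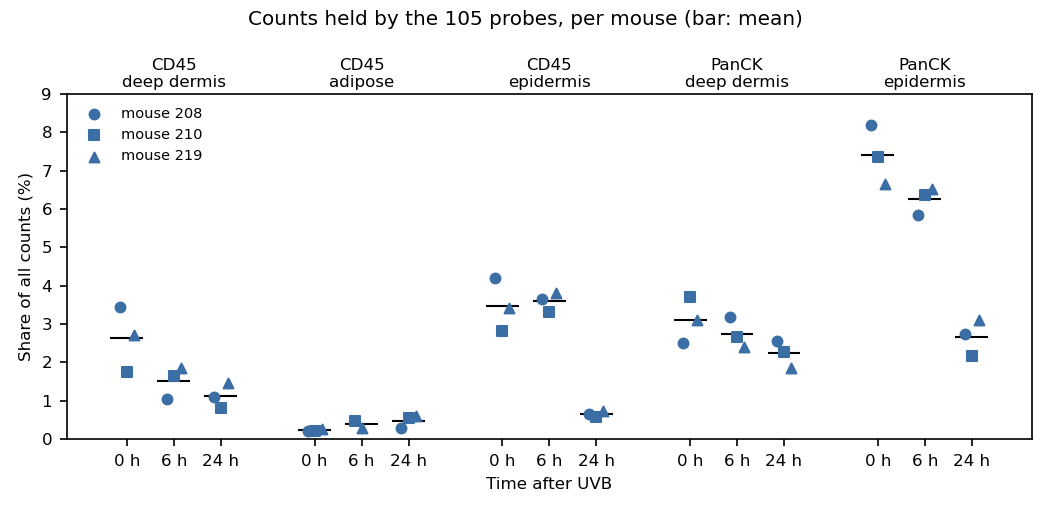
Share of all counts, in percent, held by the 105 probes in each mouse (points) with the group mean (bar), by compartment and time. CD45 adipose stays below 0.7% at every time, and the epidermal compartments are lowest at 24 h, at means of 2.67% and 0.653%.

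Whether the contrast that chose the probes was present at other times was tested in the 6 h and 24 h biopsies, which the selection did not use. At 24 h, 17 of the 105 were called higher in CD45 deep dermis than in CD45 adipose, where called means a Benjamini-Hochberg adjusted p under 0.05 in edgeR's quasi-likelihood test over all probes tested. The background was 2.55% of the 2356 probes tested, against 16.2% of the 105, and 0.458% of the other 1310 probes that reached 100 CPM. At 6 h, 18 were called higher, against 1.7% of the 2238 tested. Both times had 10 of these probes in common, and 25 were called at 1 time or more, an overlap not counted over the other probes. The median log2 difference over all 105 was 0.38 at 24 h and 1.37 at 6 h, against 0.02 and 0.11 over all probes tested. In a count that needs no model, 33 of the 105 were above adipose in every mouse at 24 h (14.8% of all listed probes were) and 62 at 6 h in both mice (18.1% of all listed probes). Only 15 of the 105 met the full conditions again at 24 h, and 33 at 6 h, where 2 mice entered. Of all 20175 listed probes, 59 met them at 24 h and 234 at 6 h.

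The patterns differed in how many of their probes were called, which was not tested, and they were cut on a ratio that holds the selected CD45 deep dermis level. At 24 h, none of the 50 probes low in PanCK dermis was called, against 9 of the 36 in between and 8 of the 19 high in PanCK dermis. The corresponding counts at 6 h were 3, 6 and 9. All 18 calls at 6 h and 16 of the 17 at 24 h were among the 64 probes that meet the conditions without the deep segment of mouse 208. Mouse 208 has no adipose at 6 h, and there the count was 4 without mouse 210 and 4 when only the 2 compartments were fitted. At 24 h it was 10 without mouse 208 and 24 without mouse 210.

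RTS0068815, in between by pattern, and RTS0070033, high in PanCK dermis, had the smallest p-values, the first at 24 h and the second at 6 h. At 24 h RTS0068815 had 1114, 635 and 2103 CPM in CD45 deep dermis and 22.5, 83.8 and 35.3 CPM in CD45 adipose, a log2 difference of 4.17 ± 0.46 (SE, edgeR adjusted p = 1.84e-09). The mice did not overlap, and 12 of 12 alternative fits called it. At 6 h it had 319, 900 and 586 CPM against 55.6 and 0 CPM in adipose (log2 difference 4.19 ± 0.68, edgeR adjusted p = 3.72e-04), a call lost in the fit of the 2 compartments alone (adjusted p = 0.076, from 1.04e-06 over the alternatives). RTS0070033 had 394, 256 and 929 CPM in CD45 deep dermis at 24 h and 22.5, 0 and 0 CPM in adipose. That log2 difference was 5.56 ± 0.67 (edgeR adjusted p = 1.16e-08, called in 12 of 12 alternatives). Its 6 h values were 169, 653 and 1347 CPM against 18.5 and 29.8 CPM, with a log2 difference of 4.69 ± 0.73 (edgeR adjusted p = 1.92e-04), not called without mouse 210 (adjusted p = 0.078, from 3.86e-07 over the alternatives). Both probes were thus scarce in adipose at all 3 times, at no more than 85.1 CPM in any sum.

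Within CD45 deep dermis, the later times are set beside 0 h as a description, because 0 h there chose the probes. The median member stood at 159 CPM (0 h), 70.9 CPM (6 h) and 61.4 CPM (24 h), while all listed probes stood at 34.6, 33.0 and 36.2 CPM. The other 1310 probes at 100 CPM or more, chosen at 0 h as well, had medians of 148, 110.5 and 96.7 CPM. By pattern, the medians were 169, 49.6 and 37.9 CPM for probes low in PanCK dermis, 138, 87.8 and 101 CPM in between, and 272, 238 and 138 CPM for probes high in PanCK dermis. The 34 probes led by the deep segment of mouse 208 were near the level of all listed probes, with medians of 36.7 CPM (6 h) and 31.9 CPM (24 h). The comparison of 24 h with 6 h uses no 0 h level, but its spread was estimated in a fit that held the 0 h sums. It is therefore not fully free of the selection, and 1415 of the 1479 probes tested met the 100 CPM condition at 0 h. In that fit edgeR called 0 members (background 0% of 1479 tested), with 9 at an unadjusted p under 0.05 (3 higher and 6 lower at 24 h). Of all 1479 tested, 71 had an unadjusted p under 0.05. DESeq2 and limma also called 0, while 4 were called lower without mouse 208 and 5 with these 2 times fitted alone.

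In CD45 adipose the median member stood at 21.8 CPM (0 h), 27.8 CPM (6 h) and 37.5 CPM (24 h), the first fixed low by the selection. There the medians of all listed probes were 31.3, 29.8 and 33.2 CPM, so the members were at an ordinary level in adipose by 6 h.

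In PanCK deep dermis, the epithelial areas of the same layer, more members fell than rose over 24 h. At 24 h against 0 h, 23 members were called lower (background 11.6% of 2499 tested, against 21.9% of the 105) and 5 higher (background 6.8%, against 4.76%). The higher calls were no more frequent than among all probes. Members that fell were 12 of the 19 high in PanCK dermis, 10 of 36 in between and 1 of 50 low in PanCK dermis. Since the patterns were cut on the 0 h level of this compartment, that split is in part fixed by the grouping. At 6 h, 3 were called lower (background 1.64%) and 2 higher (background 1.44%), both near the background. The 24 h count of 28 was 17 without mouse 210, 16 without mouse 219 and 12 with limma.

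RTS0063265 fell furthest. It had 1755, 2185 and 1068 CPM in PanCK deep dermis at 0 h, 1883, 1582 and 322 CPM at 6 h, and 153, 26.3 and 30.5 CPM at 24 h. The 24 h mice lay below all mice of the earlier times, and the log2 change from 0 h was -5.15 ± 0.47 (edgeR adjusted p = 6.16e-08). In PanCK epidermis the probe had 29.9, 55.4 and 37.3 CPM at 0 h, near the level of all listed probes, so it was an epithelial-area probe of the deep dermis and not of the epidermis. In CD45 deep dermis its values were 359, 766 and 227 CPM at 0 h and 154, 15.5 and 0 CPM at 24 h. RTS0069794 had 2440, 4792 and 3786 CPM in PanCK deep dermis at 0 h, 832, 1036 and 1043 CPM at 6 h and 391, 720 and 305 CPM at 24 h. Its log2 change was -1.94 ± 0.27 at 6 h (edgeR adjusted p = 9.33e-05) and -3.08 ± 0.29 at 24 h (edgeR adjusted p = 7.09e-08), with no overlap between the times. Both were called in 12 of 12 alternatives at 24 h.

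Against that direction, RTS0068815 rose. It had 211, 397 and 284 CPM in PanCK deep dermis at 0 h, 1503, 831 and 1752 CPM at 6 h and 2058, 2550 and 2194 CPM at 24 h. The log2 change was 2.08 ± 0.32 at 6 h (edgeR adjusted p = 3.38e-04) and 2.80 ± 0.32 at 24 h (edgeR adjusted p = 8.96e-07), and 12 of 12 alternatives called each. RTS0076356 went from 193, 260 and 250 CPM to 555, 410 and 1172 CPM at 6 h and 697, 967 and 660 CPM at 24 h. Its change was 1.42 ± 0.33 at 6 h (edgeR adjusted p = 0.0185) and 1.62 ± 0.33 at 24 h (edgeR adjusted p = 8.41e-04). The 6 h call was not made without mouse 219 (adjusted p = 0.257; 0.00395 to 0.257 over the alternatives), nor by DESeq2 or limma. RTS0073914 was lower at 6 h, with 43.8, 37.9 and 12.9 CPM after 87.8, 137 and 217 CPM (log2 change -2.10 ± 0.51, edgeR adjusted p = 0.0220). That call rested on 14 counts at 6 h and ended when mouse 210 (adjusted p = 0.055) or mouse 219 (0.271) was left out and with limma (0.705, the highest over the alternatives, from 0.00299).

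In PanCK epidermis 32 members were called lower at 24 h than at 0 h (background 10.2% of 6467 tested, against 30.5% of the 105) and 4 higher (background 9.11%, against 3.81%). Of the other 1310 probes at 100 CPM or more, 23.1% were called lower, so abundant probes as a whole were called lower more often than the background, and the members' share stands closer to theirs. The level of an ordinary probe went the other way, with a median over all listed probes of 25.2 CPM at 0 h and 40.3 CPM at 24 h. Depth differed with time in this compartment. Its sums held 200430 to 433425 counts at 0 h, 171490 to 289727 at 6 h and 86613 to 111738 at 24 h. Whether depth bears on these levels and calls was not tested. By pattern, 15 of the 19 high in PanCK dermis were lower, 16 of the 36 in between and 1 of the 50 low in PanCK dermis. Those 50 had medians of 22.6 CPM at 0 h and 42.1 CPM at 24 h, like all listed probes. At 6 h, 1 member was called lower (background 0.464%) and 0 higher (background 0.309%), with 19 and 6 at an unadjusted edgeR p under 0.05. With both directions together that was 25 of the 105, against 909 of the 6467 tested. DESeq2 likewise called 1 lower and 0 higher, limma 0 in each direction. The 24 h count of 36 was 23 without mouse 210.

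RTS0069796 and RTS0064616 had the smallest p among the members that fell in PanCK epidermis. RTS0069796 had 1691, 2303 and 1272 CPM at 0 h, 460, 601 and 1125 CPM at 6 h and 185, 134 and 171 CPM at 24 h. Each time lay below the one before it in every mouse, by a log2 change of -1.25 ± 0.29 at 6 h (edgeR adjusted p = 0.0302) and -3.38 ± 0.34 at 24 h (edgeR adjusted p = 3.31e-07). The 6 h call was not made without mouse 208 (adjusted p = 0.408), without mouse 210 (0.529), with upper quartile scaling (just over 0.05) or with limma (0.422), over a range of 0.00633 to 0.529. RTS0064616 had 918, 1084 and 1302 CPM at 0 h and 162, 89.5 and 131 CPM at 24 h (log2 change -3.06 ± 0.29, edgeR adjusted p = 1.28e-07). In PanCK deep dermis the same probe had 132, 195 and 83.4 CPM at 0 h and 663, 73.6 and 203 CPM at 24 h, and there the times overlapped. The 2 leading members that rose were scarce. RTS0063657 had 9.98, 16.2 and 11.6 CPM at 0 h and 80.8, 71.6 and 40.3 CPM at 24 h (log2 change 2.29 ± 0.53, edgeR adjusted p = 0.00442), not called without mouse 208 (adjusted p = 0.078) or 210 (0.065). RTS0077842 had 0, 23.1 and 14.0 CPM and then 46.2, 53.7 and 40.3 CPM (1.80 ± 0.60, edgeR adjusted p = 0.0364), not called without any 1 of the mice (0.110 to 0.203).

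CD45 epidermis gave the most calls. At 24 h 41 members were called lower than at 0 h (background 18.8% of 1706 tested, against 39% of the 105) and 6 higher (background 14%, against 5.71%). Of the other 1310 probes at 100 CPM or more, 17.6% were called lower and 9.85% higher. Of the 41, 29 were also called lower in PanCK epidermis, an overlap not counted over the other probes. Lower members were 13 of the 19 high in PanCK dermis, 20 of the 36 in between and 8 of the 50 low in PanCK dermis. The 6 higher calls were not stable, with 0 higher under DESeq2, under a filter on low counts applied to all probes and with no filter, 1 without mouse 210, and 10 under DESeq2's size factors. All listed probes had medians of 32.3 CPM at 0 h and 40.8 CPM at 24 h here. At 6 h, 2 members were called lower (background 0.996%) and 1 higher (background 0.41%). The 24 h count of 47 was 31 without mouse 219 and 29 with DESeq2.

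RTS0069819 had 2821, 1836 and 2059 CPM in CD45 epidermis at 0 h, 1924, 1710 and 2046 CPM at 6 h and 64.4, 97.1 and 153 CPM at 24 h. The 24 h values lay far below both earlier times, with a log2 change from 0 h of -4.02 ± 0.36 (edgeR adjusted p = 7.06e-11). RTS0069794, which had fallen in PanCK deep dermis by 6 h, had 1543, 1230 and 1918 CPM in CD45 epidermis at 0 h, 1007, 772 and 1364 CPM at 6 h and 77.2, 45.0 and 168 CPM at 24 h (log2 change at 24 h -3.87 ± 0.36, edgeR adjusted p = 1.17e-10). Both were called in 12 of 12 alternatives. The 2 leading members called higher at 24 h rested on 1 or 2 mice. RTS0062292 had 24.9, 13.8 and 35.3 CPM at 0 h and 51.5, 147 and 30.5 CPM at 24 h (2.38 ± 0.60, edgeR adjusted p = 0.00171, and 0.652 without mouse 210). RTS0061042 had 41.5, 50.5 and 35.3 CPM and then 142, 97.1 and 45.8 CPM (1.46 ± 0.45, edgeR adjusted p = 0.00950, 0.091 without mouse 208 and 0.115 without mouse 210, and up to 0.776 with limma).

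Each of the 3 calls at 6 h in CD45 epidermis was lost when a single mouse was left out. RTS0067811 had 1365, 55.2 and 0 CPM at 6 h after 41.5, 4.59 and 70.6 CPM (log2 change 3.35 ± 0.69, edgeR adjusted p = 0.00351), and without mouse 208 the change was 0.64 with an adjusted p of 0.885. Without mouse 210 its adjusted p was 0.055. RTS0062201 had 0, 18.4 and 62.0 CPM at 6 h after 1054, 59.7 and 70.6 CPM (-3.05 ± 0.75, edgeR adjusted p = 0.0203, 0.759 without mouse 208 and 0.308 without mouse 219). Neither was called without the replicate block (adjusted p = 0.066 for each). RTS0081052 had 1128, 408 and 1624 CPM at 0 h, 201, 138 and 434 CPM at 6 h and 38.6, 52.1 and 45.8 CPM at 24 h. It was lower at 6 h in all 3 mice by a log2 change of -1.93 ± 0.35 (edgeR adjusted p = 0.00109). The call was lost with limma (adjusted p = 0.319, from 2.38e-04 over the alternatives) and without mouse 219 (adjusted p = 0.308), where the log2 change was -2.03.

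**Figure D4:**
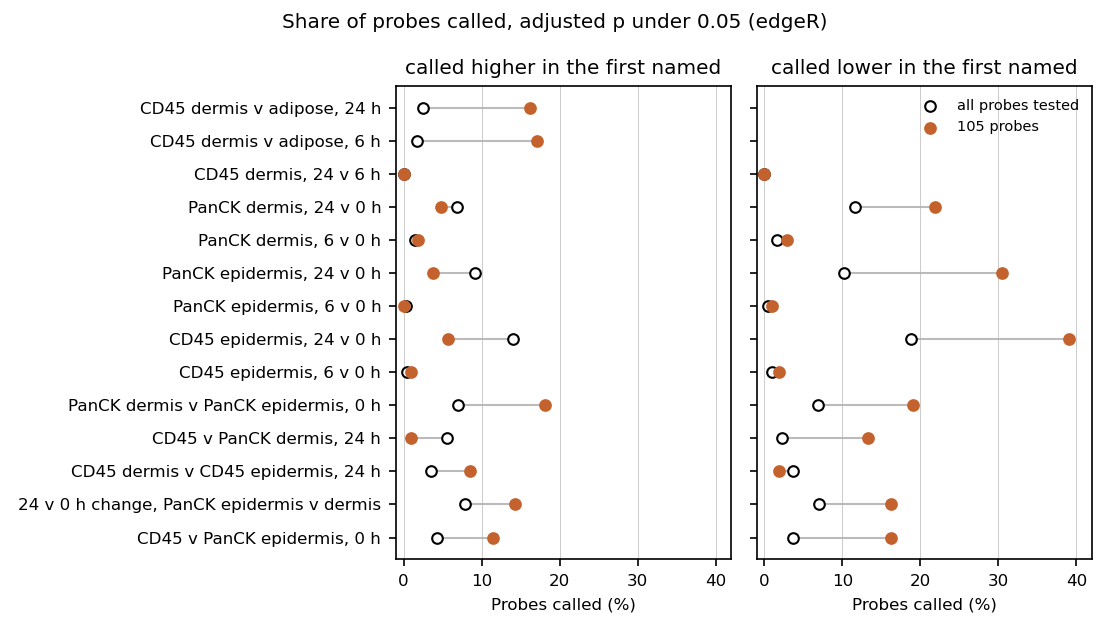
Percent of probes called (edgeR, adjusted p under 0.05) among the 105 (filled) and among all probes tested (open), with the direction given for the first named group, one row per comparison. Members were called lower more often than all probes at 24 h in each of the 3 compartments compared with 0 h, at 21.9% against 11.6%, 30.5% against 10.2% and 39% against 18.8%.

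The epithelial areas of the 2 layers did not move alike. The 24 h change differed between PanCK epidermis and PanCK deep dermis in 32 members, as an interaction with the biopsy as a block. The change was more positive in the epidermis in 15 (background 7.9% of 3115 tested, against 14.3%) and more negative in 17 (background 7%, against 16.2%). Of the other 1310 probes at 100 CPM or more, 9.62% and 9.08% were called in these 2 directions. Called separately at 24 h, 9 members were lower in both areas, 3 lower in the epidermis and higher in the deep dermis, and 2 the reverse. Another 20 were lower in the epidermis and not called in the deep dermis, and 12 lower in the deep dermis and not called in the epidermis. These overlaps were not counted over the other probes, so they are not read as a trait of the members. A call in only the epidermis or only the deep dermis is also no test of a difference between them. The count was 21 without mouse 208, 17 without mouse 210, and 21 with DESeq2 and with limma.

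RTS0068815 and RTS0076356 moved in opposite directions. RTS0068815, which rose in PanCK deep dermis, had 2125, 2070 and 2141 CPM in PanCK epidermis at 0 h, 1963, 2478 and 2630 CPM at 6 h and 693, 412 and 845 CPM at 24 h. The difference of its changes was -4.13 ± 0.35 on the log2 scale (edgeR adjusted p = 2.31e-10). By 24 h its level in PanCK deep dermis lay near the 0 h level of PanCK epidermis. In CD45 deep dermis the probe had 297, 306 and 313 CPM at 0 h and 1114, 635 and 2103 CPM at 24 h, given as a description. In CD45 epidermis it had 838, 597 and 824 CPM and then 116, 99.5 and 229 CPM. RTS0076356 had 1367, 1207 and 771 CPM in PanCK epidermis at 0 h and 266, 340 and 272 CPM at 24 h (difference of changes -3.10 ± 0.36, edgeR adjusted p = 3.71e-07). For the other direction, RTS0063657 was at 176, 208 and 83.4 CPM in PanCK deep dermis at 0 h and 136, 31.5 and 20.3 CPM at 24 h, beside its rise in PanCK epidermis (4.37 ± 0.75, edgeR adjusted p = 1.16e-04). RTS0066298 was at 1325, 1795 and 484 CPM in PanCK deep dermis at 0 h and 561, 42.1 and 30.5 CPM at 24 h, and at 59.9, 46.1 and 18.6 CPM and then 92.4, 44.7 and 20.1 CPM in PanCK epidermis (3.82 ± 0.64, edgeR adjusted p = 1.01e-04). All 4 were called in 11 of 11 alternatives.

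**Figure D5:**
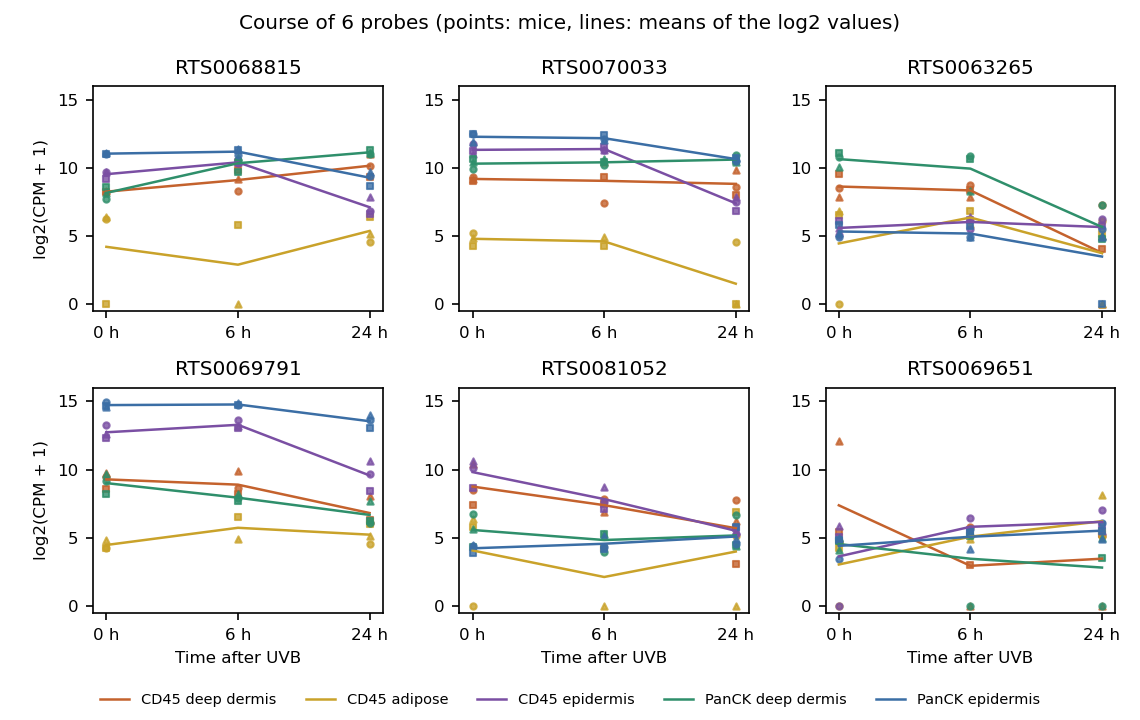
log2(CPM + 1) of 6 members at 0, 6 and 24 h (equally spaced), with 1 point per mouse (circle 208, square 210, triangle 219), a line through the means of the log2 values and a colour per compartment. RTS0068815 rises in PanCK deep dermis while it falls in PanCK epidermis, RTS0063265 falls in PanCK deep dermis, and RTS0069651 is high in 1 mouse of CD45 deep dermis at 0 h.

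At 0 h the epithelial areas of the 2 layers divided the members nearly evenly, with 19 called higher in PanCK deep dermis than in PanCK epidermis (background 7.02% of 4176 tested, against 18.1%) and 20 lower (background 6.85%, against 19%). RTS0063265, with the values above, was higher in PanCK deep dermis by 5.27 ± 0.25 on the log2 scale (edgeR adjusted p = 4.15e-09). RTS0064000 had 2694, 3706 and 1601 CPM there against 89.8, 60.0 and 37.3 CPM in PanCK epidermis (5.45 ± 0.27, edgeR adjusted p = 4.52e-09). In CD45 epidermis RTS0064000 had 16.6, 68.8 and 35.3 CPM. On the other side stood RTS0069791, the most abundant member in any compartment, with 32320, 25624 and 24527 CPM in PanCK epidermis and 570, 293 and 834 CPM in PanCK deep dermis (-5.71 ± 0.30, edgeR adjusted p = 5.07e-09). RTS0069828 had 9225, 7092 and 6689 CPM in PanCK epidermis and 52.7, 71.5 and 234 CPM in PanCK deep dermis (-6.23 ± 0.36, edgeR adjusted p = 1.69e-08). The 24 h comparisons above use the same 0 h sums, so they are not set against these calls. The 0 h level of PanCK deep dermis also cut the patterns. Limma called 24 in place of 39.

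Stained areas of the epidermis were compared at 0 h after the data had been seen. In CD45 epidermis 12 members were called higher than in PanCK epidermis (background 4.24% of 4176 tested, against 11.4%) and 17 lower (background 3.64%, against 16.2%). The other 1310 probes at 100 CPM or more were called higher in 8.63% and lower in 2.14% of cases, so the share of higher calls stood close to theirs. Of the 12, 11 were low in PanCK dermis, a pattern that rests in part on the selected CD45 deep dermis level. Their medians at 0 h were 270.4 CPM in CD45 epidermis, 166 in CD45 deep dermis, 34.1 in PanCK deep dermis, 23.3 in CD45 adipose and 19.9 in PanCK epidermis. In 8 of them CD45 epidermis had the highest mean. RTS0081052, with the CD45 epidermis values above, had 20.0, 13.8 and 21.0 CPM in PanCK epidermis, a log2 difference of 5.82 ± 0.32 (edgeR adjusted p = 1.00e-07). In CD45 deep dermis it had 359, 167 and 1364 CPM against 105, 19.5 and 50.0 CPM in PanCK deep dermis. RTS0071410 had 348, 184 and 435 CPM in CD45 epidermis and 29.9, 18.5 and 21.0 CPM in PanCK epidermis (3.88 ± 0.33, edgeR adjusted p = 5.68e-06). Their median in CD45 epidermis was 90.3 CPM (6 h) and then 41.6 CPM (24 h), near the 40.8 CPM of all listed probes. In CD45 deep dermis, which this choice did not use, it was 127 CPM (6 h) and 81.5 CPM (24 h). Of the 12, 3 were called higher than adipose at 6 h and 0 at 24 h.

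Among the 17 members on the PanCK side of the epidermis, RTS0069791 had 9815, 5236 and 6271 CPM in CD45 epidermis at 0 h, below its PanCK values (-1.84 ± 0.24, edgeR adjusted p = 2.95e-04). RTS0064948 had 41.5, 55.1 and 165 CPM in CD45 epidermis and 259, 210 and 589 CPM in PanCK epidermis (-1.93 ± 0.25, edgeR adjusted p = 2.28e-04). The count of 29 was 13 without mouse 210, 16 without mouse 219, 15 with DESeq2 and 9 with limma. Over the 17, the median at 0 h was 457 CPM in CD45 epidermis and 1115 CPM in PanCK epidermis. In CD45 deep dermis it was 162 CPM (0 h), 153 CPM (6 h) and 190 CPM (24 h).

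At 24 h, CD45 deep dermis was set beside its 2 neighbours. Against PanCK deep dermis, 1 member was called higher (background 5.6% of 2356 tested, against 0.952%) and 14 lower (background 2.21%, against 13.3%). The members were thus called on the PanCK side of the deep dermis at 24 h more often than all probes. By pattern, the lower calls were 9 of the 19 high in PanCK dermis, 5 of the 36 in between and 0 of the 50 low in PanCK dermis. The patterns were cut on the 0 h ratio of these same 2 compartments, and the split was not tested. Upper quartile scaling gave 3 higher and 14 lower. RTS0069793 had 223, 178 and 269 CPM in CD45 deep dermis and 1582, 1572 and 1006 CPM in PanCK deep dermis (-2.56 ± 0.38, edgeR adjusted p = 1.16e-06). RTS0069796 had 154, 163 and 244 CPM against 1310, 2219 and 589 CPM (-2.76 ± 0.43, edgeR adjusted p = 3.50e-06). The member called higher was RTS0077894, with 171, 101 and 171 CPM against 17.0, 36.8 and 50.8 CPM (2.04 ± 0.52, edgeR adjusted p = 0.00534, 0.124 without mouse 208 and 0.081 without mouse 210), 1 of the 12 on the CD45 side of the epidermis at 0 h. The count of 15 was 7 without mouse 210 and 0 with limma.

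Against CD45 epidermis at 24 h, 9 members were called higher in CD45 deep dermis (background 3.48% of 2356 tested, against 8.57%) and 2 lower (background 3.69%, against 1.9%). RTS0068815 had 1114, 635 and 2103 CPM in CD45 deep dermis and 116, 99.5 and 229 CPM in CD45 epidermis (2.68 ± 0.39, edgeR adjusted p = 4.22e-06). RTS0073782 had 257, 217 and 611 CPM against 25.7, 45.0 and 15.3 CPM (2.73 ± 0.50, edgeR adjusted p = 6.19e-04), with an adjusted p of 0.092 without mouse 219. At 0 h the order of this probe had been the reverse, with 111, 181 and 170 CPM in CD45 deep dermis and 514, 363 and 494 CPM in CD45 epidermis. The 2 lower members were RTS0069791 (68.5, 77.5 and 269 CPM against 837, 346 and 1557 CPM, -3.08 ± 0.42, edgeR adjusted p = 1.51e-06) and RTS0069828 (17.1, 23.2 and 24.4 CPM against 154, 90.0 and 229 CPM, -2.93 ± 0.64, edgeR adjusted p = 0.00313, and 0.118 without mouse 219). The count of 11 was 2 without mouse 219 and 7 with limma.

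Over the 14 comparisons 73 of the 105 members were called at least 1 time and 32 in none. Of these 32, 26 had over 50% of their 0 h CPM in 1 segment. The same count was not made over the other probes, so 73 of 105 is not read as a trait of the members. Among the 64 members that meet the conditions without the deep segment of mouse 208, the lower calls at 24 h against 0 h numbered 19 in PanCK deep dermis, 29 in PanCK epidermis and 36 in CD45 epidermis. When the members were chosen anew without that segment, the number called stayed within 1.5 times of that given above in each of the 14 comparisons. The new list held 91 probes, 75 to 87 of them tested in a comparison, against all 105. It shared 64 with the 105, and the segment was left out of the choice only. The 2 sets of counts are therefore not independent.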

How the data were processed

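The authors deposited 1 file of raw counts per segment, whole numbers per probe identifier with no normalization recorded. Per the file headers, GeoMx NGS Pipeline 2.3.3.10 made them. No aligner or genome build is given in the sources used here. From these counts, 44 sums over the segments of a mouse, compartment and time were made, scaled to CPM, and averaged over mice. A no template control was not used. The 105 members, the patterns and all lists were chosen with earlier results of these data known.

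Tests used edgeR 4.0.16 (R 4.3.3) on the sums, with TMM scaling, the mouse as a block and the quasi-likelihood F test. Tested were probes passing filterByExpr (minimum count 10) and, in addition, every probe at 100 CPM or more in CD45 deep dermis at 0 h, so that all 105 entered every fit. P-values were adjusted over all tested probes. The standard error of a log2 fold change was taken from the fold change and its F statistic, and CPM values carry none. In fits of adipose at 6 h mouse 208 has no adipose sum. Probes were named by a rule: the 2 most abundant members, the called members with the smallest p in each comparison (at most 2 in each direction), those nearest each threshold, and the probes most alike. The pairing comes from the mouse numbers, which recur at each time in the labels. Deviations of sums from their group means correlated at a median of -0.001 to 0.076 within a mouse across times. P-values measure the spread that remains in these 3 mice once the block (the mouse, or the biopsy for the interaction) is taken out.

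Alternatives were DESeq2's size factors, upper quartile scaling, filterByExpr alone, no filter, DESeq2 1.42.0, limma 3.58.1 on mean log2(CPM + 1), no block, each mouse left out, 1 shallow segment left out, only the 2 groups compared, other ratio limits, and, added after seeing the data, members chosen without 1 segment. Scripts were tested on simulated data. The SD printed with a share is the spread over mice. Shares of single mice and zero counts are printed without their counting error.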

Additional observations from a re-analysis of the deposited data

Results flagged for a closer look

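The 24 h change differed between PanCK epidermis and PanCK deep dermis in 32 members, by an interaction term in edgeR. The members named for it had differences of -4.13 (RTS0068815), -3.10 (RTS0076356), 4.37 (RTS0063657) and 3.82 (RTS0066298) on the log2 scale, epidermis minus deep dermis. In 13 groups of 4 to 8 segments, the summed share of the 105 probes had 0 segments standing apart from the rest of their group by Dixon's criterion. That sum can miss a segment that leads single probes, as the deeper 0 h CD45 deep dermis segment of mouse 208 led 34 members.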

How the results depend on the processing

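Of 209 recomputed counts, 170 stayed within 1.5 times of the reported count and 39 did not, and the cause was not tested. CD45 deep dermis sums held as few as 17076 counts, and leaving out the 1 shallow segment moved 0 counts by over 1.5 times. Without the replicate block 1 member in place of 3 was called at 6 h in CD45 epidermis, and no other count moved by over 1.5 times. With a ratio limit of 6, PanCK deep dermis at 24 h had 17 called. Upper quartile scaling gave 0 at 6 h in PanCK epidermis. FilterByExpr alone gave 3 at 6 h in PanCK deep dermis and 1 in CD45 epidermis, and no filter 1 in the latter. DESeq2's test gave 2 at 6 h in PanCK deep dermis, 29 and 1 at 24 and 6 h in CD45 epidermis, 21 for the interaction and 15 between the epidermal areas at 0 h. Limma gave 12 and 2 at 24 and 6 h in PanCK deep dermis, 0 at 6 h in both epidermal areas, 24 between PanCK areas, 0 between CD45 and PanCK deep dermis, 7 between CD45 areas, 21 for the interaction and 9 between the epidermal areas. Fitting only the groups compared gave 4 for CD45 deep dermis over adipose at 6 h and 5 for CD45 deep dermis between 24 and 6 h. With each mouse left out in turn, counts ran from 10 to 24 and from 4 to 18 against adipose at 24 and 6 h, 0 to 4 in CD45 deep dermis, 16 to 28 and 2 to 7 in PanCK deep dermis at 24 and 6 h, 23 to 30 and 0 to 1 in PanCK epidermis, 31 to 40 and 1 to 3 in CD45 epidermis, 27 to 34 between PanCK areas and 13 to 32 between epidermal areas at 0 h, 7 to 14 between CD45 and PanCK deep dermis, 2 to 9 between CD45 areas and 17 to 30 for the interaction. At 6 h in CD45 epidermis the split was 1 higher and 2 lower, and 1 and 1 with upper quartile scaling. DESeq2's size factors and upper quartile scaling moved the members' median log2 change by -0.21 to 0.17, and 0 called members turned sign.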
